A study of Mus musculus with 188 samples.

Results

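Replication of the genome was compared between diploid mouse embryonic stem cells (mESCs) that had copied slightly less than 50% of their autosomal DNA and cells that had copied slightly more. The cells were single nuclei of F121-9, a diploid line from a cross of 129 and Castaneus mice, in which each chromosome pair holds a homolog of either strain, grown in N2B27 medium with 2i and LIF, which keeps mESCs in a naive pluripotent state, and sorted from S phase by DAPI fluorescence. No treatment was applied, and every cell of both groups came from the same line. Each value is a replication state, 1 for replicated and 0 for unreplicated, given to each homolog of a cell in 50 kb bins of mm10. Progress was the percentage of 46743 autosomal bins with state 1, averaged over the homologs of a cell. The 11 cells at 40 to under 50% form the group before the midpoint and the 35 cells at 50 to under 60% the group after it, 46 of the 63 diploid cells with values and of the 96 labelled diploid S-phase cells. Of the other diploid cells, 4 were under 40% and 13 at or above 60%. Haploid H129-2 mESCs, from the same medium, served as a second line, with 6 cells at 40 to under 50% and 19 at 50 to under 60%. The series as a whole has 188 labelled cells, 138 of them with values.

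The groups were chosen by the measured states themselves, so that a higher replicated percentage after the midpoint is fixed by the choice and was not tested. Each sample was 1 cell, no culture was named for any cell, and cells of 1 culture are not replicates of a condition, so no p-value is given and the SD is the spread over cells. Read numbers per cell are unknown from these values. The last cell below the midpoint was C8 at 49.86% and the first above it F6 at 50.65%, a gap of 0.787 percentage points. At the outer limits, F8 lay just outside at 39.46% and E10 just inside at 40.86%, while G7 lay inside at 59.96% and G10 outside at 60.39%. Cells are named by their plate well.

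During S phase each chromosome is copied in large domains that follow a characteristic order. Early domains are rich in genes and lie in open chromatin in the interior of the nucleus, and late domains are poor in genes and often lie at the nuclear lamina. Domains between these extremes are copied in mid S phase. A domain is far larger than a gene, so that neighbouring genes of a cluster usually share a state.

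Several pairs of cells had nearly the same smoothed profile. The pairs G3 and C1 (Pearson's r = 0.934), F7 and C5 (r = 0.924) and F11 and C12 (r = 0.924) stood above the next pair, at r = 0.894, and the median over all 1953 pairs was 0.692. All 6 cells lay in the group after the midpoint. The states of these pairs differed in 7.62%, 8.72% and 16.1% of bins, so none was the same profile deposited again. With 1 cell of each pair left out, the percentage of bins that gained 30 points or more remained at 12.2%. Plate rows were filled by both groups except rows B and D, which held 4 and 6 cells after the midpoint and 0 before it.

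The gain between the groups was uneven along the genome and fell mostly on mid-replicating bins, which windows on either side of 50% progress favour. Over the 45112 autosomal bins used, which had a state in every cell and a smoothed score in no fewer than 50% of each line's cells, the replicated percentage averaged 45.7% before and 56.0% after the midpoint, a difference of 10.3 percentage points with an SD over bins of 15.2. The median bin gained 5.71 points, and single bins ranged from -28.3 to 85.7 points. Of all bins, 66.7% were higher after the midpoint, 13.6% were equal and 19.7% were lower. At least 30 points were gained by 5518 bins, 12.2% of the bins, or 276 Mb, and these are called gaining bins in what follows. The share was 5.78% when smoothed scores above 0 were counted as replicated and 7.56% with windows of 45 to under 50% and 50 to under 55%. At least 50 points were gained by 952 bins, 2.11% of the total. No bin lost 30 points (0.328% did with smoothed scores above 0 as the state, 0.749% with windows of 45 to under 50% and 50 to under 55%, and up to 0.0665% with 1 plate row left out), and 265 bins, 0.587%, lost 15 points or more. The gaining bins held 44.8% of all positive differences.

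In single cells the gaining bins were 28.9% ± 7.06 replicated before the midpoint (SD, n = 11), with a lowest value of 20.2%, a median of 26.2% and a highest of 40.6%. After the midpoint they were 70.3% ± 7.88 replicated (SD, n = 35), with a lowest value of 52.3%, a median of 73.1% and a highest of 82.4%. No cell of either group fell within the range of the other, which follows from how the bins were chosen. Cells that took no part in that choice were also placed by their progress, so all autosomal bins are given beside the gaining bins. The gaining bins were 21.9% ± 7.09 replicated in the 4 diploid cells under 40% (SD), against 29.2% ± 11.4 for all autosomal bins. In the 13 diploid cells at or above 60% the gaining bins were 81.9% ± 6.22 replicated (SD), against 63.8% ± 4.95 for all autosomal bins. In haploid cells the gaining bins were 44.2% ± 8.26 replicated at 40 to under 50% progress (SD, n = 6) and 63.8% ± 6.18 at 50 to under 60% (SD, n = 19). Haploid cells thus differed by 19.6 points on average in these bins, against 9.04 over all bins. For the 952 bins with the highest gains, the diploid cells under 40% were at 21.1%, above the 18.2% of the group before the midpoint, although their progress was lower. In those bins the haploid windows were at 46.1% and 67.6%, a smaller step than the 18.2% and 75.6% of the diploid groups that chose them.

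**Figure D1:**
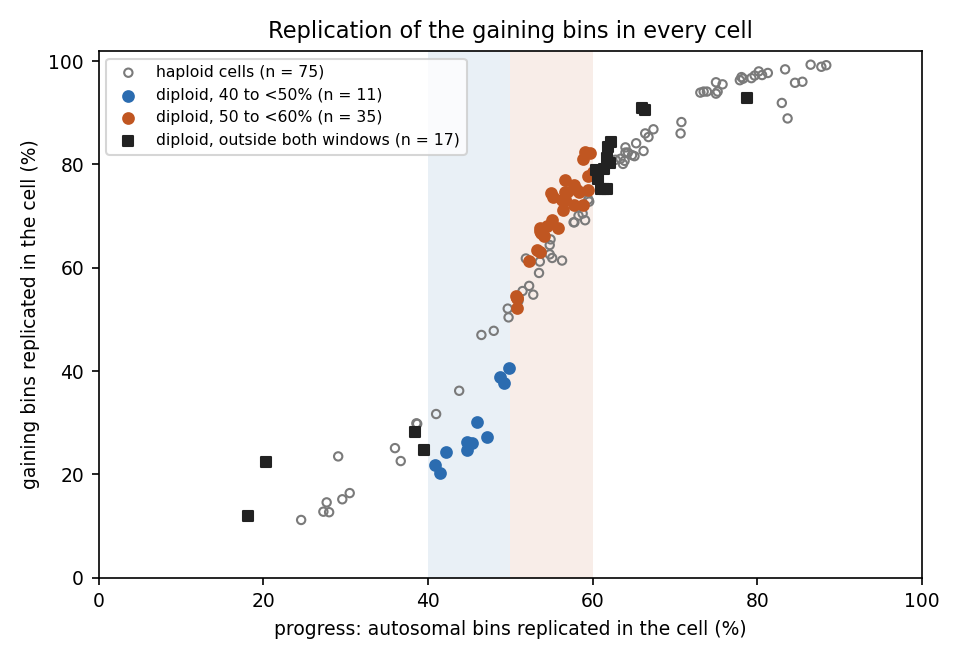
Percentage of the 5518 gaining bins replicated in each cell (vertical axis) against its progress, the percentage of autosomal bins replicated (horizontal axis), with the windows of 40 to under 50% and 50 to under 60% shaded. Filled circles are the 11 and 35 diploid cells that chose the bins, squares the other 17 diploid cells and open circles the 75 haploid cells. Diploid cells stood at 20.2% to 40.6% in the first window and 52.3% to 82.4% in the second, whereas the 6 haploid cells of the first window ranged from 31.7% to 52.1%.

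The scheduled time of a bin was taken from the other line, as the percentile of its mean smoothed score over the 75 haploid cells, with 0 for the earliest bin. The gaining bins had a median percentile of 49.0, with quartiles of 40.2 and 56.9, and 88.3% of them lay between percentiles 30 and 70. When the schedule was cut into 10 equal intervals, the earliest interval was already 95.5% ± 4.2 replicated before the midpoint and 97.3% ± 3.10 after it (SD over cells). Interval 4 rose from 73.8% to 89.1%, interval 5 from 52.6% ± 8.18 to 76.5% ± 6.30, interval 6 from 31.1% ± 4.94 to 55.7% ± 8.12, and interval 7 from 14.8% to 31.2%. The latest interval was 1.34% replicated before and 1.81% after. Intervals 5 and 6 held 29.0% and 30% of the gaining bins, and each of intervals 9 and 10 under 0.2%. Haploid cells of the same windows gained 20.7 points in interval 5 and 22.5 points in interval 6, close to the 23.8 and 24.7 points of the diploid cells. The haploid window cells are among the 75 that set the schedule, so their gain in the middle intervals is partly built in.

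**Figure D2:**
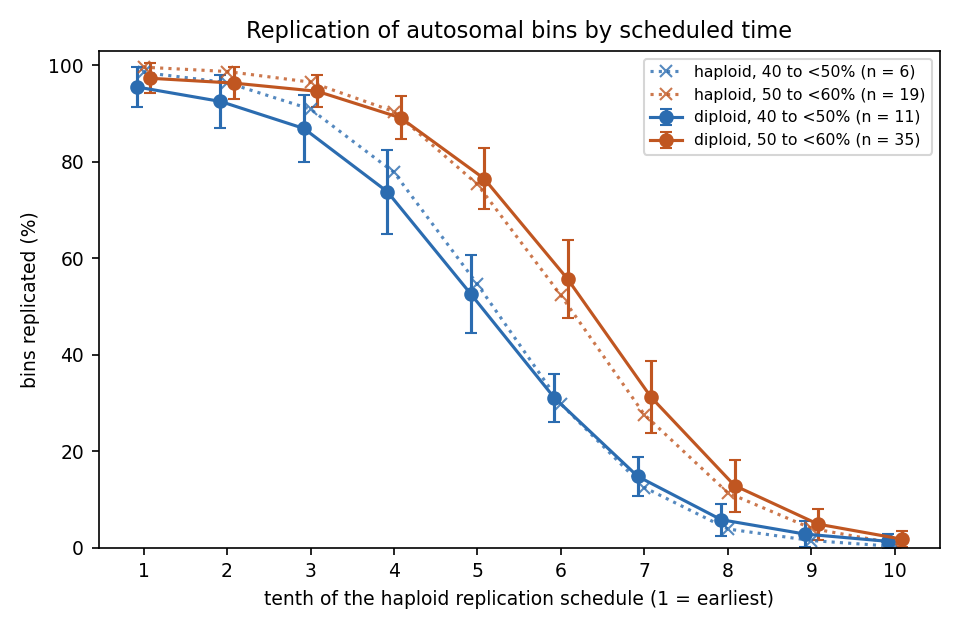
Percentage of bins replicated (vertical axis) in 10 equal intervals of the haploid replication schedule, from the earliest to the latest (horizontal axis), as mean and SD over diploid cells of each window (filled circles, error bars) and as means over haploid cells (crosses, dotted lines). The curves of the groups lie 1.82 points apart in the earliest interval, 24.7 points apart in interval 6 and 0.476 points apart in the latest.

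Bins of like scheduled time were also set side by side. Between percentiles 40 and 60, 3254 bins were gaining and 5769 were not. The gaining ones rose from 26.3% to 68.7% and the others from 50.6% to 64.6%, which the choice of bins by their gain fixes. GC content was 41.9% ± 2.48 and 42.0% ± 2.51 (SD over bins), repeat-masked sequence 31.9% in both, the density of gene starts 4.61 and 5.42 per Mb, and the median distance to the nearest late bin 1550 and 1100 kb. The haploid cells, which did not choose the bins, gained 23.1 points in the gaining bins and 20.8 points in the others, and so hardly separated them. Over the whole schedule, 5309 bins, 11.8%, gained at least 30 points between the haploid windows. They shared 1621 bins with the diploid set, 29.4% of the diploid and 30.5% of the haploid gaining bins. The sharing includes what both sets have in common through their mid-schedule position.

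Gaining bins lay in stretches. Runs of 5 or more neighbouring gaining bins numbered 411 and held 75.4% of the gaining bins. Their median length was 400 kb, and the longest spanned 2.90 Mb. The nearest bins on either side that were early (at least 90% replicated before the midpoint) or late (at most 10% replicated after it) were early on both sides for 41.1% of these runs, early on one side and late on the other for 40.6%, and late on both sides for 16.1%. Gaining bins were a median of 700 kb from the nearest early bin and 1650 kb from the nearest late bin. Over the 169 runs of 10 or more bins, a cell before the midpoint had the whole run unreplicated in 43.8% of cases, the whole run replicated in 12.3% and a part of it replicated in 43.9%. After the midpoint these shares were 9.55%, 50.7% and 39.7%. Bins of 1 run share their segment call in a cell and are not independent.

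Sequence content followed the schedule. Early bins (12798 bins) were 45.7% GC with 13.7 starts of protein-coding genes per Mb, and late bins (11659 bins) were 38.0% GC with 1.80 starts per Mb. The gaining bins lay between them, at 42.1% ± 2.65 GC (SD over bins) and 4.98 starts per Mb, near the 42.0% GC and 6.76 starts per Mb of all autosomal bins. Promoters held a median of 18 CG dinucleotides per 300 bases in early bins, 9 in gaining bins and 2 in late bins. At least 10 were present in 71.2%, 49.3% and 20.8% of promoters.

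Every chromosome was more replicated after the midpoint, by between 8.52 and 13.2 percentage points. Chromosome 19 had the highest difference, rising from 49.5% ± 6.60 to 62.7% ± 4.47 (SD over cells), with 24 of the 35 cells after the midpoint above the highest cell before it. It was followed by chromosome 13, from 46.4% ± 4.41 to 58.9% ± 4.59, a difference of 12.5 points, and chromosome 9, from 48.3% ± 5.14 to 60.2% ± 2.77. On chromosome 9 the groups did not overlap, with a highest value of 54.5% before and a lowest of 54.8% after the midpoint, and the same held for chromosomes 3, 12 and 16. Cells were grouped by their progress over these same autosomes, so separation of the groups on a chromosome is partly built in. The smallest differences were on chromosome 16, from 42.7% ± 1.81 to 51.2% ± 2.74, and chromosome 3, from 41.0% ± 1.82 to 49.9% ± 3.15. The differences of chromosomes 16 and 19 lay about as far apart as 1 SD over cells on chromosome 19. With each cell centred on its own progress the difference of chromosome 19 was 2.90 points and still the highest. It was not the highest when smoothed scores above 0 were counted as replicated or in windows of 45 to under 50% and 50 to under 55%, where chromosome 18 led with 6.02 and 6.78 points.

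The level of a chromosome varied more than its gain. Chromosome 11 was the most replicated in both groups (54.0% ± 5.83 and 65.3% ± 3.71) and chromosome 3 the least among the autosomes. The share of gaining bins ran from 8.06% on chromosome 3 to 16.7% on chromosome 11, against 12.2% over all autosomes. Across the 19 autosomes the difference between groups had r = 0.537 and rho = 0.400 with the share of bins in percentiles 40 to 60 of the schedule. With the difference between the haploid windows it had r = 0.392 and rho = 0.54. With the level before the midpoint r and rho were both 0.539. These values describe 19 chromosomes of the same cells. In haploid cells chromosome 11 gained 4.21 points, the smallest of the haploid differences, and chromosome 18 the most, 12.4 points.

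The X chromosome was not part of the progress measure. It was 39.7% ± 2.70 replicated before the midpoint, with a lowest value of 35.6%, a median of 39.2% and a highest of 43.1% (SD, n = 11). After the midpoint it was 49.6% ± 3.12 replicated, from 42.0% through a median of 49.9% to 55.1% (SD, n = 35). All but 1 of the 35 cells after the midpoint were above the highest cell before it, the exception being D10 at 42.0%. The difference of 9.95 points was close to the autosomal 10.3. The X minus the autosomes was -6.04 points before the midpoint and -6.4 points after it. Of 2700 X bins, 272, or 10.1%, gained 30 points or more and 0 lost as much. In haploid cells the X rose from 29.8% to 39.1% between the same windows, further below the 46.6% and 55.7% of their autosomes. X loss was the most frequent aneuploidy that the authors met in the diploid line, and they scaled aneuploid chromosomes to control cells before the states were made. Its part in these X values was not tested.

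**Figure D3:**
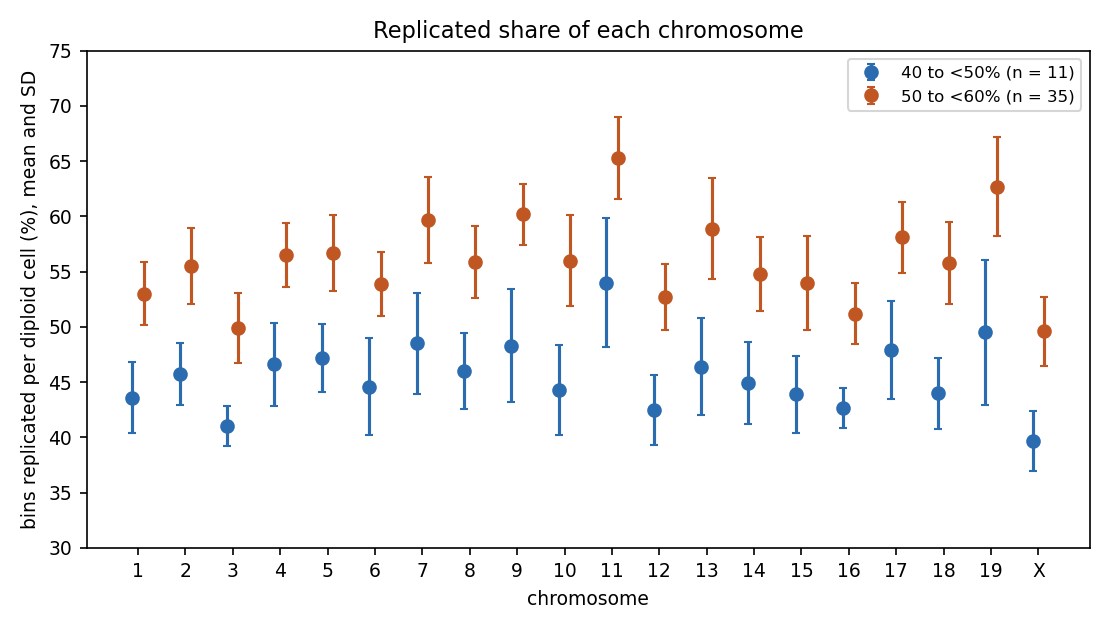
Percentage of bins replicated per diploid cell (vertical axis, from 30% to 75%) on each chromosome (horizontal axis), as mean and SD over the 11 cells before and the 35 cells after the midpoint. The means rose on every chromosome, from 8.52 points on chromosome 16 to 13.2 on chromosome 19, and the X rose by 9.95 points from the lowest level before the midpoint.

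The strongest local gains were runs of 5 or more neighbouring bins that each gained at least 50 points. There were 70 such runs on 17 chromosomes, with 544 bins in all and a longest run of 750 kb, and 9 of them overlapped no protein-coding gene. None lay on chromosomes 12 and 17, while chromosome 5 held 8. The 8 with the highest mean difference are described here, followed by the 3 strongest runs in the opposite direction. They were picked for their difference, which is therefore a description.

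The run with the highest mean difference lay at chr13:21850001-22100000, inside the large histone gene cluster, where it covered the zinc finger gene Zfp184, Pom121l2, the serine protease gene Prss16, the histone genes H2ac12, H2bc12, H4c9, H2ac11 and H2bc11, and the vomeronasal receptor gene Vmn1r188. It was 5.45% replicated before the midpoint and 85.1% after it. Of the 11 cells before the midpoint, 9 had no bin of it replicated, E8 had 40% and C8 had 20%. After the midpoint 29 of 35 cells had replicated all of it, and 4 cells (C2, D9, G3 and E6) none. None of the 4 diploid cells under 40% but 12 of the 13 at or above 60% had replicated most of it. Haploid cells went from 66.7% to 81.1% in the same windows, so the step in this run was smaller in the second line. Further along the chromosome, the run at chr13:22250001-22500000, which holds vomeronasal receptor genes from Vmn1r195 to Vmn1r201, rose from 16.4% to 82.9%. Here 9 of 11 cells were at 0 before the midpoint and 29 of 35 at 100% after it.

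The promoters of 4 genes of the first run show how unlike the sequences are that were copied together there. They are 300 bases long, from RefSeq for GRCm38.p6 (the mm10 assembly), 250 before to 50 after the gene start, and were chosen after the values were seen. Capitals mark the CCAAT box, a motif common in histone promoters, on either strand (CCAAT or ATTGG).
H2ac11 (chr13:22042900-22043199, minus strand): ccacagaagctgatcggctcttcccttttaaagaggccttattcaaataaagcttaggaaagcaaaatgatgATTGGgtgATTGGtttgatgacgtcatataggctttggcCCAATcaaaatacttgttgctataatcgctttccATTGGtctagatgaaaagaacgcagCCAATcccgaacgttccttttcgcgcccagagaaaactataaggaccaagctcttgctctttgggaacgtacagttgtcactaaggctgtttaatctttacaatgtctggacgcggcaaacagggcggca
H2ac12 (chr13:22035594-22035893, minus strand): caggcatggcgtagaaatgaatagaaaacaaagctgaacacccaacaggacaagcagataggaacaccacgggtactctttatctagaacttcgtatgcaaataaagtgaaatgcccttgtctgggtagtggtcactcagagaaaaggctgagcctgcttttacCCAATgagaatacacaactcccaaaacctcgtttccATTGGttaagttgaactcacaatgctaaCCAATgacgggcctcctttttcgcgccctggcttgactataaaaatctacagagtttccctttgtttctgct
H4c9 (chr13:22041313-22041612, minus strand): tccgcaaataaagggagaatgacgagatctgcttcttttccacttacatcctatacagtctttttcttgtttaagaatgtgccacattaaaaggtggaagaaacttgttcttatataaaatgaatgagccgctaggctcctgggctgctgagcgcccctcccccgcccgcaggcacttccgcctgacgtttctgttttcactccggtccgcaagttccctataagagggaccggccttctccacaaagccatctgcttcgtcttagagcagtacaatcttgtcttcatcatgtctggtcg
Vmn1r188 (chr13:22087628-22087927, plus strand): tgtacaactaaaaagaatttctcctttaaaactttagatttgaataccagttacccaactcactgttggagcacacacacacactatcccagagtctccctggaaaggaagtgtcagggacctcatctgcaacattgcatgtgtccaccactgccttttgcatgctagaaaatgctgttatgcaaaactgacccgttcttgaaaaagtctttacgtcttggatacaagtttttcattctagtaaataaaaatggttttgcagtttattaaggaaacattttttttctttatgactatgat
The promoter of H2ac11, a core histone H2A gene, held 5 such boxes and 12 CG dinucleotides, and that of H2ac12 held 3 boxes and 7 CG. No box was found for H4c9, a histone H4 gene with 13 CG, or for the pheromone receptor gene Vmn1r188, with 2 CG. The motif was present in 37.9% of 27025 promoters, 1 per gene, in 88.7% of 53 listed histone promoters and in 45.7% of 188 vomeronasal receptor promoters. H2ac11, H2ac12 and H4c9 lie in the same 50 kb bin, and Vmn1r188 lies in the next bin of the run. Their equal percentages, 0% before and 85.7% after the midpoint, are therefore not separate observations.

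On chromosome 8, chr8:35300001-36000000 rose from 7.14% to 78.1%. It holds Ppp1r3b, which targets a phosphatase to glycogen, Eri1, an exoribonuclease that trims histone mRNA ends, and the claudin gene Cldn23. No cell before the midpoint had replicated more than 35.7% of its 14 bins, while 22 of 35 cells after it had replicated all of them and 1 cell none. A second run there, chr8:79850001-80550000 with Hhip, an inhibitor of hedgehog signalling, rose from 11% to 81.1%. Haploid cells rose from 41.7% to 48.5% in the first of these runs and from 66.7% to 95.5% in the second.

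The other runs lay on chromosomes 5, 9, 11 and 15. The run at chr9:99800001-100250000 holds Sox14, a transcription factor gene of the nervous system, and rose from 19.2% to 87.3%. Before the midpoint F3 and G4 had replicated all of it and 8 cells none of it. At chr11:21800001-22250000, with the homeobox gene Otx1, Wdpcp and Ehbp1, the values were 3.03% and 70.5%. The run at chr5:91500001-91750000, with Parm1, rose from 3.64% to 69.1%, and 10 of 11 cells were at 0 before the midpoint. A 500 kb run with no protein-coding gene at chr15:51200001-51700000 rose from 6.36% to 74.3%. Its haploid values were 53.3% and 81.6%.

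Single cells differed in which of the 8 runs they had copied. Before the midpoint 8 of 11 cells had completed none of the runs and the others 1 each. After it cells had completed between 2 and 8 runs, with a median of 6, and 3 of 35 cells had completed all of them. Outside the groups, the number of diploid cells under 40% that had replicated most of a run was between 0 and 3 of 4, the highest for the first run on chromosome 8, and for cells at or above 60% it was between 9 and 13 of 13.

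Fewer bins moved the other way, and by smaller amounts. There were 15 runs of 5 or more bins that fell by at least 15 points, with 107 bins in all. The strongest was a stretch without protein-coding genes at chr6:36100001-36350000, scheduled late (percentile 77.3), which 3 of 11 cells (E10, A6 and H8) had fully replicated before the midpoint and no cell after it, where 32 of 35 cells were at 0. The same 3 cells had the most early bins unreplicated of their group (13.3%, 17.5% and 15.5% of bins before percentile 30), and the part of such cells in this difference was not tested. The share of cells with most of the run replicated had an exact 95% binomial interval of 6.02% to 61.0% before the midpoint. After it the interval was 0.700% to 19.2%. The run was picked for its difference and the cells are not replicates of a condition, so these intervals do not test the difference. A run at chr11:97400001-97750000, with the Polycomb genes Pcgf2 and Epop and the proteasome gene Psmb3, was at 100% in all 11 cells before the midpoint but at 78.8% after it, where 5 cells (H10, F1, D1, D12 and G7) were at 0. Haploid cells of both windows were at 100% there. The third run, chr1:159800001-160100000, with the tenascin genes Tnr and Tnn, went from 89.4% to 69.0%. All intervals of this kind cover the sampling of cells only.

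**Figure D4:**
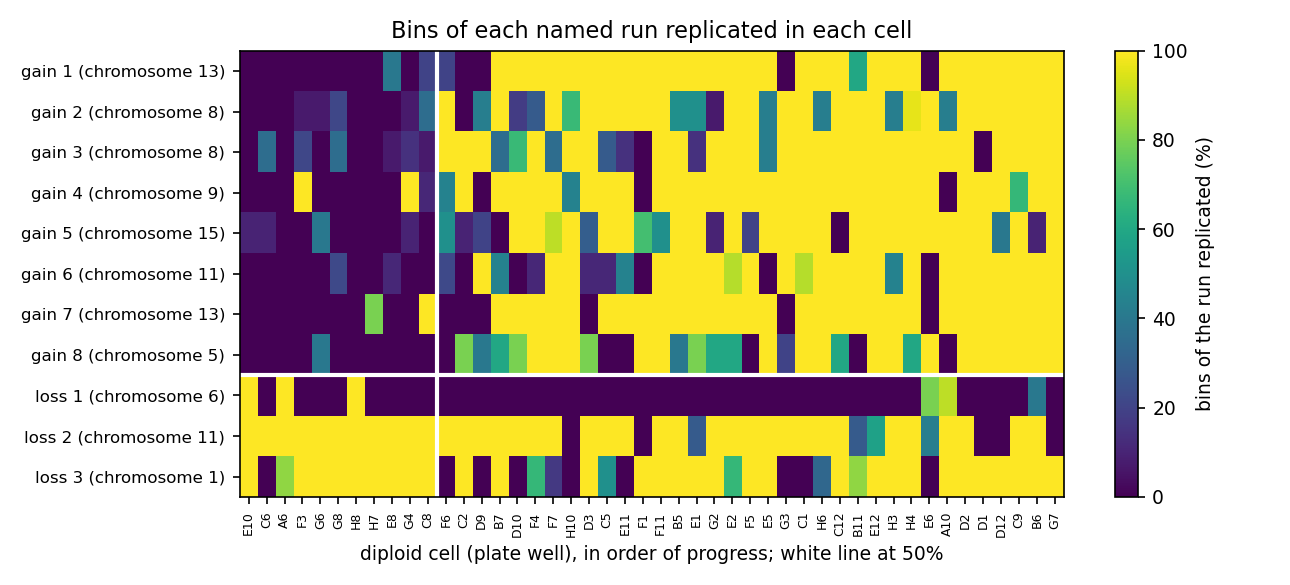
Percentage of the bins of each run replicated (colour, 0 to 100%) in every diploid cell of both groups, with cells in order of progress from left to right, the white vertical line at 50% progress and the white horizontal line between the 8 runs that gained most and the 3 that lost most. The first run on chromosome 13 was at 0 in 9 of 11 cells before the midpoint and complete in 29 of 35 after it. Among the 3 runs that lost most, the one on chromosome 11 was complete in all 11 cells before and in 26 of 35 after the midpoint.

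Genes were placed by the mean over the bins they overlap. Of 19361 protein-coding genes, 1700, or 8.78%, gained at least 30 points and 0 lost as much. Their median level was 90.9% before and 94.3% after the midpoint and their median difference 3.38 points, since 56.3% of them lay in bins at least 90% replicated before the midpoint. In a list of 25 pluripotency factors, the genes that maintain the embryonic stem cell state, 22 were early by that measure and the median was 100% before and 97.1% after. Pou5f1 stood at 90.9% and 94.3%, Nanog at 90.9% and 97.1%, and Sox2 at 100% and 97.1%. Klf5, a Krüppel-like factor, was the only member to gain 30 points, from 63.6% to 98.6%. It was replicated on most of its bins in 7 of 11 cells before the midpoint and in 34 of 35 after it. In haploid cells Klf5 was at 100% in both windows, so the second line showed no gain there. Tet2 rose from 86.4% to 96.4%, and the lowest difference was that of Prdm14, from 100% to 94.3%.

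Regulators of later lineages were spread more widely. Of 23 measured neural lineage genes, 2 gained 30 points, 8.70% against 8.78% of all genes. Pax3, a factor of the neural tube and neural crest, rose from 13.6% to 74.3%, while Zic1 was at 0 in both groups and Lhx2 fell from 100% to 90%. Of 22 measured mesoderm, endoderm and trophoblast regulators, 5 gained 30 points, or 22.7% against 8.78% of all genes. They were Gata6, a factor of primitive endoderm (27.3% to 84.3%), Pax8 (31.8% to 75.7%), the mesoderm factor T, the blood factor Runx1 (50.9% to 89.7%) and Tal1 (63.6% to 97.1%). Pdx1, from 100% to 97.1%, had the lowest difference of this list. The haploid windows of 40 to under 50% and 50 to under 60% did not repeat all of these gains. Gata6 went from 0% to 63.2% there, T from 0% to 47.4% and Tal1 from 66.7% to 78.9%. Pax8 went from 83.3% to 81.6%, and Runx1 fell from 96.7% to 65.3%.

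Genes of the replication machinery were mostly copied before the midpoint. Of 39 measured members, 28 were early, 71.8% against 56.3% of all genes. The median level was 100% before and 97.1% after, against 90.9% and 94.3% over all genes. Of the members, 3, or 7.69%, gained 30 points, near the 8.78% of all genes. Orc5 encodes a subunit of the origin recognition complex that marks origins, and rose from 9.09% to 70%. Cdc7, the kinase that triggers origin firing, rose from 18.2% to 62.9%, and Orc4, another subunit of that complex, from 27.3% to 62.9%. Orc5 was replicated on most of its bins in 1 of 11 cells before the midpoint and in 24 of 35 after it. Orc1 was at 100% in both groups, and Orc2 and Orc6 went from 100% to 97.1%. The helicase genes Mcm4, Mcm6 and Mcm7 were at 100% in both groups. The clamp loader gene Rfc1 had the lowest difference, from 100% to 88.6%. In haploid cells Orc5 was already at 66.7% at 40 to under 50% progress and at 97.4% at 50 to under 60%.

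Clusters of related genes showed the largest shifts among the lists. Of 58 replication-dependent histone genes, which supply histones to newly copied DNA, 43 gained 30 points, 74.1% against 8.78% of all genes. The listed genes occupy only 13 distinct sets of bins, so that the genes are not independent. The 48 genes of the chromosome 13 cluster, over 31 measured bins at chr13:21715711-23934913, gained between 27.8 and 85.7 points, whereas the 10 genes of the chromosome 3 cluster went from 100% to 97.1%. In single cells the chromosome 13 cluster was 28.7% ± 30.9 replicated before the midpoint (SD, n = 11), from 0 through a median of 12.9% to 83.9%. After the midpoint it was 82.5% ± 29.3 replicated (SD, n = 35), from 0 through a median of 100% to 100%, so the groups overlapped widely. In the diploid cells outside the groups it was 18.5% under 40% progress and 92.1% at or above 60%. Haploid cells were at 61.3% ± 22.6 and 79.3% ± 22.8 in the same windows (SD, n = 6 and n = 19). The difference between the lines in this cluster was not tested, and line, plate and sorting cannot be told apart.

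A boundary ran through the clustered protocadherin genes on chromosome 18, which give neurons their surface identity. The 14 alpha genes and the 22 beta genes all gained at least 30 points, and none of the 21 gamma genes did, 63.2% of the list against 8.78% of all genes. The listed genes occupy only 17 distinct sets of bins and are not independent. The alpha cluster rose from 31.8% ± 32.0 to 75.7% ± 38.6 (SD over cells), the beta cluster from 18.2% ± 30.2 to 74.0% ± 38.5, and the gamma cluster, next to it, from 93.2% ± 22.6 to 98.6% ± 8.45. The highest differences were those of Pcdhb9 to Pcdhb13, from 9.09% to 72.9%, and the lowest those of Pcdhgc3, Pcdhgc4 and Pcdhgc5, from 100% to 98.6%. Differences fell along the last beta genes, from 63.8 points at Pcdhb13 to 54.2 at Pcdhb15 and 41.7 at Pcdhb22, and were 5.39 points at Pcdhga1. In the 17 diploid cells outside both groups the beta cluster was 12.5% replicated under 40% progress and 96.2% at or above 60%, and the gamma cluster 75% and 100%. In the haploid windows the beta cluster was at 75% and 90.4% and the gamma cluster at 100% in both, so the beta genes were also the later ones there.

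Keratin genes lie in a cluster on chromosome 11, with type I keratins, and another on chromosome 15. Of 53 members 21 gained 30 points, 39.6% against 8.78% of all genes. The members occupy 33 distinct sets of bins and are not independent. The chromosome 11 cluster rose from 34.7% ± 20 to 71.4% ± 30.8 (SD over cells), the one on chromosome 15 from 67.9% ± 41.9 to 96.1% ± 11.5. Krt23 had the highest difference, from 9.09% to 65.7%, followed by Krt12 and Krt20, with 50.4 points each, and Krt17 and Krt42 the lowest, from 90.9% to 97.1%. Haploid cells were at 88.6% and 98.3% in the chromosome 11 cluster, so it had mostly been copied by 40 to under 50% progress in that line.

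Other clusters took opposite sides of the midpoint. None of the 39 Hox genes, which pattern the body axis, gained 30 points. The Hoxa, Hoxb and Hoxc clusters were 97.0%, 90.9% and 100% replicated before the midpoint, while the Hoxd cluster was at 63.6% before and 86.7% after it. Hoxd1 rose most, from 63.6% to 88.6%, then Hoxd10 together with 7 other Hoxd genes, from 63.6% to 85.7%, while Hoxc12 and Hoxc13 went from 100% to 94.3%. The alpha globin cluster stood at 90.9% and 100%, with Hba-a1 and Hba-a2 in the same bin, and the beta globin cluster, with Hbb-y, at 0% and 7.14%. Among 41 beta-defensin genes, which encode antimicrobial peptides, 10 gained 30 points, 24.4% against 8.78% of all genes, with Defb46 and Defb6 both at 36.4% and 78.6% and Defb48 at 100% and 97.1%, a value it shares with 4 others. The beta-defensin genes occupy 24 distinct sets of bins and are not independent.

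The receptor families of smell were mostly unreplicated in both groups. Of 1038 olfactory receptor genes, 173 gained 30 points (16.7%, against 8.78% of all genes), and the median of the list went from 9.09% to 22.9%. The olfactory receptor genes occupy 562 distinct sets of bins and are not independent. Olfr1351, Olfr1352, Olfr1353, Olfr57 and Olfr8 gained most, all from 9.09% to 78.6%, while Olfr410 and Olfr411 fell from 54.5% to 31.4%. Of 206 vomeronasal receptor genes, 47 gained 30 points (22.8%, against 8.78%), with a median of 9.09% before and 32.1% after. These occupy 173 distinct sets of bins and are not independent either. Vmn1r188 rose from 0% to 85.7% and Vmn1r191 and Vmn1r192 gained 82.9 points each, and Vmn2r79 fell from 18.2% to 2.86%.

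Ribosomal protein genes and very large genes lay at opposite ends. Of 72 ribosomal protein genes 55 were early, 76.4% against 56.3% of all genes. In this list 3 gained 30 points (4.17%, against 8.78% of all genes), among them Rpl37 (27.3% to 80.0%) and Rps20 (36.4% to 80.0%). In the haploid windows Rpl37 went from 66.7% to 73.7%, and Rps20 was at 100% in both. Rpl9 and Rpl19 had the lowest difference, -8.57 points. Of 27 very large genes, 0 were early (0%, against 56.3% of all genes), and the median was 8.69% before and 11.2% after the midpoint. Of the 3 members to gain 30 points (11.1%, against 8.78% of all genes), Sox5 rose from 30.5% to 71.0% and Immp2l from 49.1% to 79.4%, while Opcml fell from 6.82% to 3.27%. Of 29 measured imprinted genes, which are expressed from 1 parental copy, 3 gained 30 points, 10.3% against 8.78% of all genes. These were Igf2, from 45.5% to 88.6%, its neighbour H19, from 45.5% to 85.7%, and Gnas, from 63.6% to 97.1%. In the haploid windows Igf2 went from 100% to 94.7%, H19 from 83.3% to 94.7% and Gnas from 33.3% to 89.5%. Zrsr1, Nnat and Zdbf2 had the lowest difference, from 100% to 97.1%, and Ndn, Magel2, Mkrn3 and Snrpn were all at 0% and 2.86%.

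**Figure D5:**
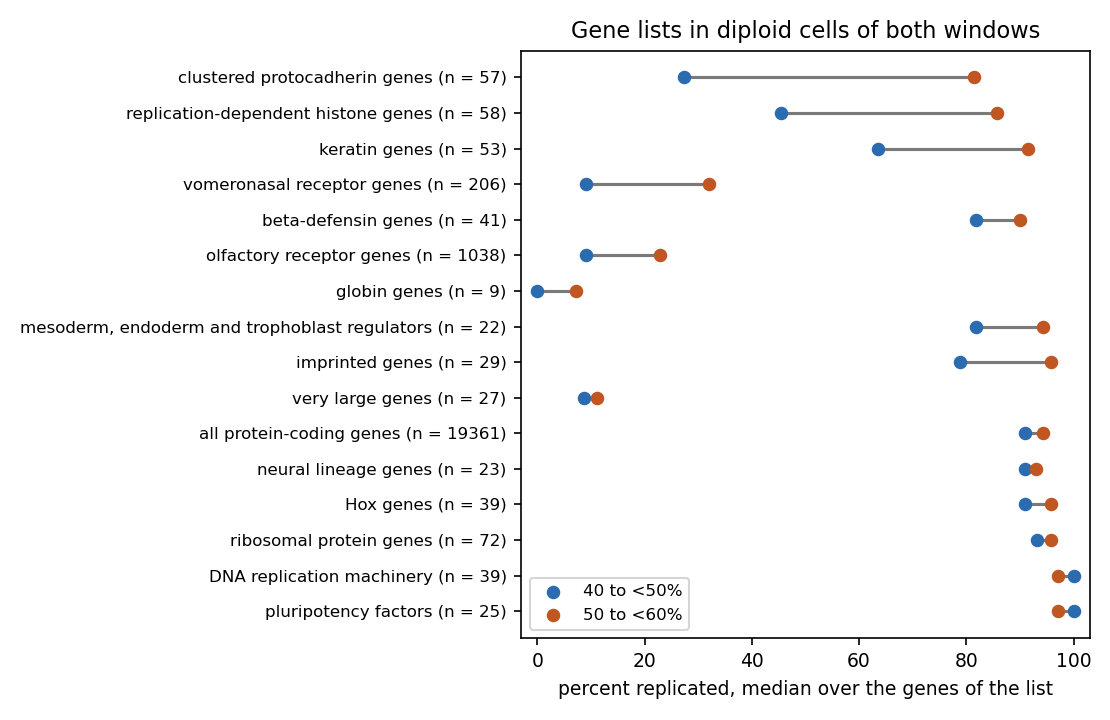
Median percent replicated over the genes of each list (horizontal axis) in diploid cells before and after the midpoint (blue and orange points joined by a line), with the number of genes measured and the lists in order of their median difference (vertical axis). Clustered protocadherin and histone genes moved most, with median differences of 49.5 and 37.7 points, against 3.38 points over all 19361 protein-coding genes.

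Replicated stretches were longer after the midpoint, which follows in part from grouping the cells by their replicated share. Runs were counted along the used bins, so bins left out do not break a run. Along the autosomes of 1 homolog, cells before the midpoint had 1026 ± 94.8 runs of equal state (SD, n = 11), from 884 through a median of 985 to 1208, and cells after it had 935 ± 79.3 (SD, n = 35), from 723 through a median of 933 to 1111. The groups overlapped, and the difference of -91.1 runs was about the size of the SD. When smoothed scores above 0 were instead counted as replicated, the difference turned to 27.2. Replicated runs had a median length of 1261 kb ± 150 before and 1612 kb ± 172 after the midpoint, and unreplicated runs of 1470 kb ± 114 and 1360 kb ± 120. The longest replicated run of a cell was 18.3 Mb ± 5 before and 25.3 Mb ± 6.02 after, and the longest unreplicated run 19.8 Mb ± 2.59 and 15.4 Mb ± 3.80.

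Cells of 1 group did not replicate the same bins. Here the difference between 2 cells was the mean absolute difference of their states averaged over the homologs. A bin unlike on 1 homolog therefore counts less than a bin unlike on both. By this measure cells differed by 18.6% on average over 55 pairs before the midpoint, with a range of 11.7% to 27.0%. After it they differed by 17.6% over 595 pairs, from 7.32% to 28.1%. The authors had removed cells whose states correlated with no other cell, so these spreads hold for the cells kept. Among pairs within 1 percentage point of progress, bins at percentiles 30 to 70 differed by 30.3% before (8 pairs) and 28.9% after the midpoint (107 pairs). Earlier bins differed by 12.5% before and 6.65% after, and later bins by 5.06% and 10.1%. Bins scheduled before percentile 30 were still unreplicated in 8.38% ± 5.43 of cases before the midpoint and 3.95% ± 3.18 after it (SD over cells), and bins from percentile 70 were replicated in 3.34% ± 2.47 and 6.54% ± 3.29. A6 and H8 before the midpoint, with 17.5% and 15.5% of early bins unreplicated, and F11 after it, with 15%, departed most from the schedule. Of 11997 bins that no cell before the midpoint had replicated, 8505, or 70.9%, were replicated in at least 1 homolog of a cell after it, 721 were gaining bins and 189 gained at least 50 points. With 35 cells after the midpoint against 11 before it, a rarely replicated bin can enter the count of 8505 without a change in its rate.

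The homologs of a cell were given the same state by default. The authors copied 1 unparsed profile to both and made them differ only where at least 40 parsed reads were present and the asynchrony score passed a limit, so a low share of unlike bins is built into the states and says little of the homologs themselves. Bins in which 1 homolog was replicated and the other was not made up 0.541% ± 0.738 before the midpoint, from 0 through a median of 0.106% to 2.19% (SD, n = 11). After it they made up 1.20% ± 2.01, from 0 through a median of 0.399% to 8.58%, in F11 (SD, n = 35). The difference of 0.656 points was under the SD of either group, and 3 cells before and 9 after the midpoint had no such bin. The 129 homolog was the replicated one more often in 7 of 11 and 22 of 35 cells and the Castaneus homolog in 1 and 4. The limit for calling 129 ahead lay slightly nearer 0 than that for Castaneus. Progress was 45.6% ± 3.15 for 129 and 45.5% ± 3.07 for Castaneus before the midpoint and 55.9% ± 2.81 and 55.7% ± 2.71 after it.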

How the data were processed

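Per the labels and the study's methods, single DAPI-sorted nuclei were amplified with SeqPlex and sequenced as single-end reads, most of 50 bp and some longer, and the authors used Bowtie2, SAMtools and bedtools with mm10. The authors counted reads in 50 kb bins, scaled them, divided by G1 and G2 control cells, masked extreme bins, centred and scaled each cell and smoothed over a median of 15 bins, which gives the deposited smoothed score, a relative value that is no copy number. They then segmented each cell and split segments at a threshold into the deposited binarized states. Smoothing and segmentation tie neighbouring bins together and set the resolution of every run. The authors removed cells with few reads, cells with complex karyotypes or complete loss of a chromosome, and outlier cells whose states correlated with no other cell. Read numbers per cell are not used here.

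From these tables (52685 bins, 49588 with a state), percentages, differences and runs were computed with Python 3.11.15, pandas 2.3.3, numpy 2.4.6 and scipy 1.17.1, over bins with a state in every cell and a smoothed score in no fewer than 50% of each line's cells. Cells were matched to labels by well, and 24 columns of 8 cells that matched no label were not used. Cells were grouped by progress, so no test across groups was made. Gene positions, promoters, GC content and repeat masking came from RefSeq and the genome for GRCm38.p6. The steps were tested on simulated data. The genes named were up to 6 for each of the 8 runs of at least 5 bins with a gain of 50 points or more and the highest mean, the 3 strongest runs at -15 or below, the 2 highest and the lowest member of each list and every pluripotency factor with a gain of 30. Other members were named after their values were seen, and some genes that the rule picks are not reported here. The groups and gene lists were chosen with earlier results of these data known. Alternatives were another state, narrower windows, all bins, 1 homolog, other schedules, and leaving out plate rows or similar cells.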

Additional observations from a re-analysis of the deposited data

How the results depend on the processing

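Over 7 results and 100 alternative values, 82 stayed within 1.5 times of the reported share or within 1 SD over cells of the reported difference. With a smoothed score above 0, which is centred within each cell and so carries little of the progress, in place of the state, 5.78% of bins gained and 0.328% lost 30 points, the highest chromosome difference was 6.02 points (chromosome 18), the X difference 4.56 points, and the difference in runs turned to 27.2. With windows of 45 to under 50% (6 cells) and 50 to under 55% (13 cells), nearer to each other by construction, 7.56% gained and 0.749% lost 30 points, the highest chromosome difference was 6.78 points (chromosome 18) and the X difference 4.96 points. With a limit of 50 points 2.11% gained. Centring each cell on its progress left 2.90 points for chromosome 19. Leaving out each plate row in turn gave 12% to 13.6% of bins gaining, a median percentile of 47.6 to 50.0, a highest chromosome difference of 12.4 to 14.3 points, an X difference of 9.51 to 10.6 points, a difference in runs of -120 to -71.5, in bins with unlike homologs of 0.527 to 0.771 points, and 0 to 0.0665% of bins losing 30 points. The depth of each cell is unknown, which limits how finely states can be read. No paired analysis was possible because each sample is a single cell, wells pair no cells and no test was made.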
